A study of Danio rerio with 9 samples.

Results

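The RNAs of 9 germ plasm and germ cell genes were followed through zebrafish development: ddx4, dazl, dnd1, nanos3, tdrd7a, tdrd5, tdrd6b, piwil1 and piwil2. They were chosen by name, with no threshold on their values but with earlier results of these data known. Counts of the 9 beside shares of all genes are therefore a description. All 9 were found by symbol among the 29291 genes of the deposited table. Poly(A) RNA came from whole embryos or larvae of the AB strain at 9 stages, with about 2000 individuals pooled into 1 library per stage and no treatment in the labels. Ages are in hours after fertilization (hpf). The cleavage and blastula stages were 64-cell, at 2 hpf, and oblong-sphere, at 3.6 to 4 hpf, followed by the gastrula at 50%-epiboly, at 5.25 hpf. The segmenting embryo had 15 somites (15-somite) at 16.5 to 17.5 hpf. Prim-25 embryos were 36 hpf old, Long-pec embryos 48 hpf and Pec-fin embryos 60 hpf. Protruding-mouth was reached at 72 hpf, and the last sample was the larva of 1 week. Without replicates no test between stages could be made, and every value describes these libraries alone.

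The germ line of the zebrafish is set aside by germ plasm, a cytoplasm rich in RNA and protein that the oocyte supplies and that a few cells of the early embryo inherit. The same mother-supplied RNAs are also present at first in the cells that become the body, where they are broken down around the onset of zygotic transcription, while primordial germ cells keep them. Primordial germ cells then migrate to the gonad region, and they are a very small part of a whole embryo. In whole-animal RNA, fewer germ cells and less RNA per germ cell cannot be told apart.

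Values are RPKM, reads scaled to gene length and to the mapped reads of the library. The scaling to length does not remove other differences between genes, such as reads shared by genes of like sequence. Ranks and shares among the 9 genes are thus approximate. Mapped reads, recovered from the steps between low RPKM values, came to 123311411 at 64-cell and up to 205507592 at Protruding-mouth in libraries of a single run. Pec-fin values came out as means of 2 runs of 171010360 and 59857652 reads. Intervals in brackets are exact 95% Poisson intervals of the reads behind a value and cover counting error only. Reads could be recovered for 7 of the 9 genes, and tdrd6b and piwil2, whose values were not whole reads over a single length, have no interval. The stage labels were set against marker genes. The maternal gene btg4 had 252 RPKM at 64-cell and 1.62 RPKM at 50%-epiboly. The gastrula gene chrd was highest at 50%-epiboly with 75.3 RPKM, and the muscle regulator myog at 15-somite with 83.6 RPKM. Not all of the 11 measured markers were as clear. The globin gene hbbe3, highest at Long-pec with 3770 RPKM, had 0.525 RPKM at 64-cell, 0.0100 RPKM at oblong-sphere and 25.2 RPKM at 50%-epiboly. The gene he1.1, highest at Long-pec with 185 RPKM, had 0.0460, 0.00499 and 1.29 RPKM at those stages. Digestive enzymes did not follow the labels. Of 13 measured exocrine pancreas genes, which belong to an organ that the early embryo lacks, 13 were above 0 at 64-cell. Their summed level was 76.1 RPKM at 64-cell, 0.493 RPKM at oblong-sphere, 42.3 RPKM at 50%-epiboly, 95.1 RPKM at 15-somite, 18.8 RPKM at Prim-25, 69.2 RPKM at Long-pec and 3.98 RPKM at Pec-fin, and prss59.1 and sycn.1 were listed at 0 at oblong-sphere. It was 147 RPKM at Protruding-mouth and 29652 RPKM at 1 week. Whether all RNA in these libraries came from animals of the labelled stage was not tested. This limits what the values of the 9 germ cell genes at 64-cell, 50%-epiboly, 15-somite and Long-pec say about embryos of those stages. The same holds for Prim-25, where the summed pancreas level was lower but above that at oblong-sphere and Pec-fin. It holds for 1 week too, where the summed level of 15 oocyte genes was 75.4 RPKM, against 2.12 RPKM at Protruding-mouth.

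All 9 genes were abundant at the 64-cell stage and rare from Prim-25 on. At 64-cell the lowest was tdrd5 with 10.5 RPKM, the median 29.4 RPKM and the highest dazl with 101 RPKM. The summed level of the 9 genes was 375 RPKM at 64-cell, 254 RPKM at oblong-sphere, 35.01 RPKM at 50%-epiboly, 16.1 RPKM at 15-somite and 3.63 RPKM at Prim-25. It was then 10.7 RPKM at Long-pec, 2.77 RPKM at Pec-fin, 2.303 RPKM at Protruding-mouth and 3.06 RPKM at 1 week. As deposited, the sum went down from stage to stage except at Long-pec and at 1 week. The 1-week sum was 1.33 times that at Protruding-mouth as deposited and 0.904 to 0.988 times under the 3 other scalings. The Protruding-mouth sum was 0.832 times that at Pec-fin, and 1.009 times with mitochondrially encoded genes left out of the scaling. The direction of these last steps thus turned with the scaling. The number of the genes at 1 RPKM or more was 9 at the first 2 stages, 6 at 50%-epiboly, 4 at 15-somite, 1 at Prim-25, 5 at Long-pec, 1 at Pec-fin and 0 afterwards. Between 64-cell and the larva of 1 week all 9 were lower by at least 2-fold in log2(RPKM + 1), with RPKM ratios from 27.7-fold for piwil1 to 895-fold for tdrd6b. Of all 19868 genes that reached 1 RPKM in some library, 29.9% were lower by that measure and 39.9% higher.

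**Figure D1:**
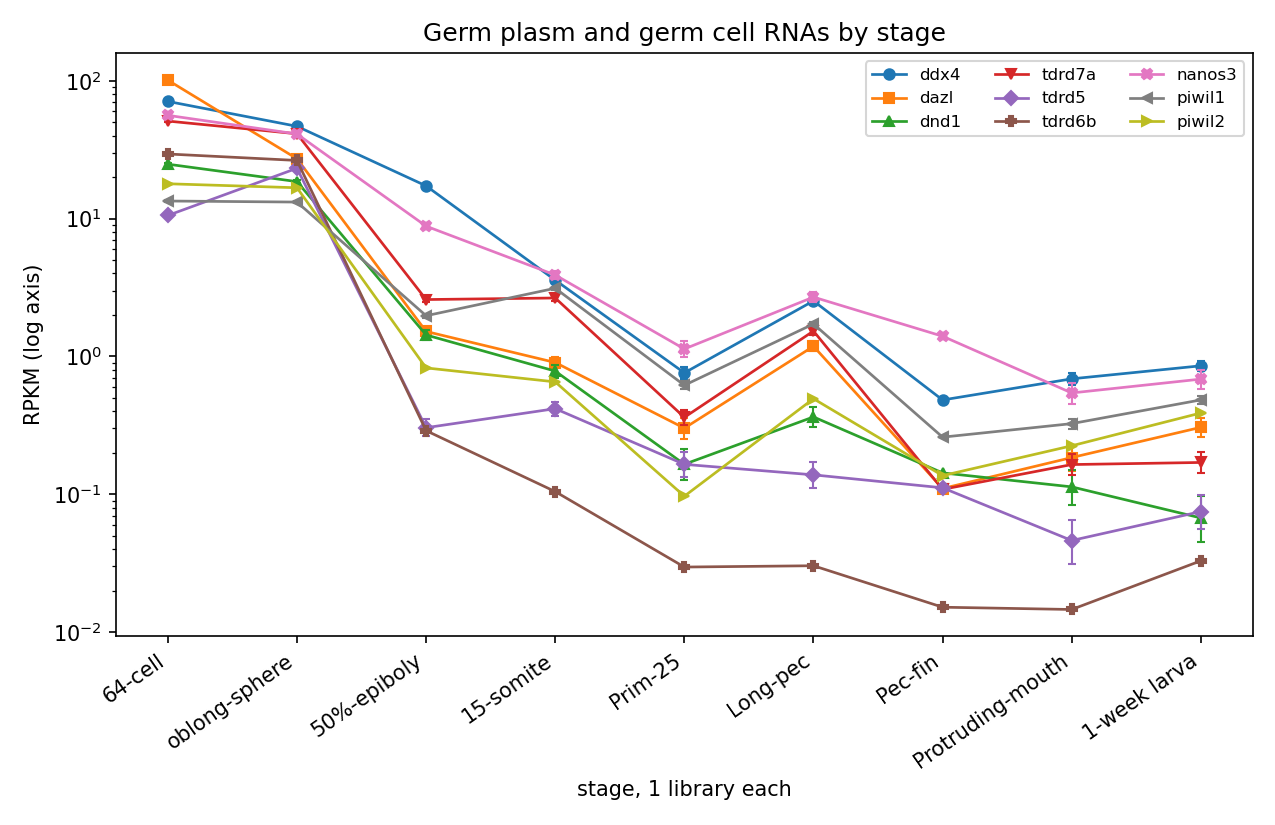
RPKM of the 9 genes (log axis) at the 9 stages, 1 library each, with exact 95% Poisson intervals of the reads where these could be recovered. All lines drop between oblong-sphere and 50%-epiboly, ddx4 and nanos3 least far. As deposited, 8 of the 9 stand above both neighbours at Long-pec, against 6984 of 19717 genes. Of the 8, tdrd6b does so by 1.02 times only, a direction that turned under the 3 other scalings. The level of ddx4 was 2.53 RPKM at Long-pec against 0.760 at Prim-25 and 0.483 at Pec-fin.

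Among the RNA-binding proteins and the helicase, ddx4 (ENSDARG00000014373) encodes Vasa, a DEAD-box RNA helicase and the standard marker of germ cells. Its level was 70.8 RPKM at 64-cell, 46.7 RPKM (46.2 to 47.3) at oblong-sphere, 17.3 RPKM (16.9 to 17.6) at 50%-epiboly, 3.58 RPKM at 15-somite, 0.760 RPKM at Prim-25, 2.53 RPKM at Long-pec, 0.483 RPKM at Pec-fin, 0.688 RPKM at Protruding-mouth and 0.855 RPKM at 1 week. It kept the largest share of its oblong-sphere level at 50%-epiboly, 37.0% as deposited and 32.4% to 47.3% under the other scalings, and its largest difference in log2(RPKM + 1) came a step later than for the rest, -1.997 between 50%-epiboly and 15-somite. The lowest level was at Pec-fin, and those at Prim-25, Protruding-mouth and 1 week lay close together. The intervals at 1 week and Prim-25 overlapped, as did those at Prim-25 and Protruding-mouth.

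The gene nanos3 (ENSDARG00000068255) encodes a zinc-finger RNA-binding protein that primordial germ cells of the zebrafish need to survive. It had 56.1 RPKM (54.9 to 57.4) at 64-cell, 41.1 RPKM at oblong-sphere, 8.81 RPKM (8.42 to 9.22) at 50%-epiboly, 3.90 RPKM at 15-somite, 1.13 RPKM at Prim-25, 2.69 RPKM at Long-pec, 1.401 RPKM at Pec-fin, 0.543 RPKM at Protruding-mouth and 0.684 RPKM at 1 week. Its share of the oblong-sphere level kept at 50%-epiboly came next after ddx4, with 21.4% as deposited and 18.8% to 27.4% under the other scalings. At 15-somite, Prim-25, Long-pec and Pec-fin it was the highest of the 9 genes. Its interval overlapped that of ddx4 at 15-somite (3.64 to 4.17 against 3.42 to 3.74) and at Long-pec (2.48 to 2.92 against 2.40 to 2.66). The first rank at those stages was thus not resolved by counting. At Pec-fin nanos3 was 2.90 times the ddx4 level and made up 50.6% of the summed RPKM of the 9 genes. Both runs of that library showed this, with 1.34 and 1.46 RPKM for nanos3 against 0.488 and 0.478 RPKM for ddx4.

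The gene dazl (ENSDARG00000036214) encodes an RNA-binding protein that promotes translation of germ cell mRNAs, and it went down first. It had 101 RPKM (99.9 to 102) at 64-cell, 27.2 RPKM (26.7 to 27.7) at oblong-sphere, 1.52 RPKM at 50%-epiboly, 0.903 RPKM at 15-somite, 0.302 RPKM at Prim-25, 1.18 RPKM at Long-pec, 0.110 RPKM at Pec-fin, 0.185 RPKM at Protruding-mouth and 0.306 RPKM at 1 week. It was the highest of the 9 at 64-cell and the fourth at oblong-sphere, after ddx4, tdrd7a and nanos3. Its Long-pec level lay above the 15-somite level, which held for no other gene of the 9.

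The gene dnd1 (ENSDARG00000022813) encodes Dead end, an RNA-binding protein that in zebrafish germ cells shields target mRNAs from microRNAs. It had 24.8 RPKM at 64-cell, 18.5 RPKM at oblong-sphere, 1.43 RPKM (1.32 to 1.55) at 50%-epiboly, 0.782 RPKM at 15-somite, 0.165 RPKM (0.126 to 0.211) at Prim-25, 0.364 RPKM (0.307 to 0.428) at Long-pec, 0.143 RPKM at Pec-fin, 0.113 RPKM at Protruding-mouth and 0.0673 RPKM (0.0451 to 0.0966) at 1 week. As deposited, it is the only one of the 9 with its lowest level at 1 week, from 29 reads. Under the 3 other scalings nanos3 was lowest at 1 week too, by 0.03 to 0.08 in log2(RPKM + 1) below Protruding-mouth. With median-of-ratios scaling so was tdrd7a. The intervals of dnd1 at Protruding-mouth and 1 week overlapped, so that order was not resolved at this depth.

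The Tudor-domain proteins build germ granules by binding methylated arginines on Piwi proteins and other partners. The gene tdrd7a (ENSDARG00000032808), whose product organizes germ granules in the zebrafish, had 51.0 RPKM at 64-cell, 41.3 RPKM at oblong-sphere, 2.59 RPKM (2.47 to 2.70) at 50%-epiboly, 2.65 RPKM (2.54 to 2.77) at 15-somite, 0.361 RPKM at Prim-25, 1.53 RPKM (1.44 to 1.62) at Long-pec, 0.108 RPKM at Pec-fin, 0.164 RPKM at Protruding-mouth and 0.170 RPKM at 1 week. Its levels at 50%-epiboly and 15-somite were not distinguishable by counting error. Between Long-pec and Pec-fin it had the largest ratio of the 9, 14.1-fold.

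The other Tudor genes had the largest ratios of the 9 between oblong-sphere and 50%-epiboly, though over the whole course tdrd5 was within the range of the rest. The gene tdrd5 (ENSDARG00000071450), which in the mouse is needed for piRNA production and sperm formation, had 10.5 RPKM (10.2 to 10.9) at 64-cell, 23.2 RPKM (22.8 to 23.6) at oblong-sphere, 0.304 RPKM at 50%-epiboly, 0.418 RPKM at 15-somite, 0.165 RPKM at Prim-25, 0.138 RPKM at Long-pec, 0.111 RPKM at Pec-fin, 0.0462 RPKM at Protruding-mouth and 0.0748 RPKM at 1 week. It was the only one of the 9 to be highest at oblong-sphere. The gene tdrd6b (ENSDARG00000089954) had 29.4 RPKM at 64-cell, 26.4 RPKM at oblong-sphere, 0.289 RPKM at 50%-epiboly and 0.105 RPKM at 15-somite, and between 0.0146 and 0.0329 RPKM from Prim-25 on. Its paralogue tdrd6, which can share reads with it where their sequences match, had 44.8 RPKM at 64-cell, 26.5 RPKM at oblong-sphere, 1.57 RPKM at 50%-epiboly and 0.704 RPKM at 15-somite. The pair was close together at oblong-sphere, and tdrd6 was the higher of them at 50%-epiboly.

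The Piwi proteins bind piRNAs, small RNAs that silence transposons in the germ line. The gene piwil1 (ENSDARG00000041699), also called ziwi, had 13.4 RPKM at 64-cell, 13.2 RPKM at oblong-sphere, 1.97 RPKM (1.90 to 2.04) at 50%-epiboly, 3.12 RPKM (3.04 to 3.21) at 15-somite, 0.618 RPKM at Prim-25, 1.72 RPKM at Long-pec, 0.260 RPKM at Pec-fin, 0.325 RPKM at Protruding-mouth and 0.484 RPKM at 1 week. Its first 2 levels had overlapping intervals. Its 15-somite level was 1.58 times that at 50%-epiboly, and in log2(RPKM + 1) this difference was 0.47, or 0.02 with median-of-ratios scaling of the libraries. The gene piwil2 (ENSDARG00000062601), also called zili, had 17.9 RPKM at 64-cell, 16.7 RPKM at oblong-sphere, 0.825 RPKM at 50%-epiboly, 0.653 RPKM at 15-somite, 0.0968 RPKM at Prim-25, 0.493 RPKM at Long-pec, 0.136 RPKM at Pec-fin, 0.225 RPKM at Protruding-mouth and 0.389 RPKM at 1 week. It was the higher of the Piwi pair at the first 2 stages and the lower at every later one.

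For the 7 genes with recovered reads, the 8 single-run stages were put in order of level. Of the 49 pairs of neighbours in these orders 11 had overlapping intervals, and all but 2 of those, piwil1 at 64-cell and oblong-sphere and tdrd7a at 50%-epiboly and 15-somite, involved stages from Prim-25 on.

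Between 64-cell and oblong-sphere, which bracket the onset of zygotic transcription, most of the 9 genes differed little. The call used throughout was a later-minus-earlier difference in log2(RPKM + 1) of 1 or more in size, that is, 2-fold. By this measure dazl was lower (-1.86), tdrd5 was higher (1.07), and the other 7 were neither, with differences from -0.59 for ddx4 to -0.02 for piwil1. These are differences in poly(A) RNA, and RNA without a poly(A) tail was not measured. Of all genes 3.3% were lower and 3.1% higher. The median over the 9 genes was -0.30 and over all genes 0.00. Beside dazl, 8 of 14 oocyte genes were lower at this step (median -1.24) and 0 higher. Of 13 exocrine pancreas genes 10 were lower (median -2.19) and 0 higher. The part of these genes' sources in the dazl value was not tested. The step of tdrd5 was 1.07 to 1.13 under every scaling and pseudocount tried. Of 15 measured partners of the piRNA pathway none was past 2-fold in either direction, with a median of 0.16. Among them tdrd1, a Tudor protein that binds Piwi proteins, had 39.7 and then 62.7 RPKM, and rnf17, another Tudor gene, had 14.3 and then 25.1 RPKM. Other partners went the opposite way. The Tudor genes tdrd6 and tdrkh had 44.8 and then 26.5 RPKM and 27.1 and then 16.9 RPKM, and pld6 had 11.4 and then 5.26 RPKM.

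**Figure D2:**
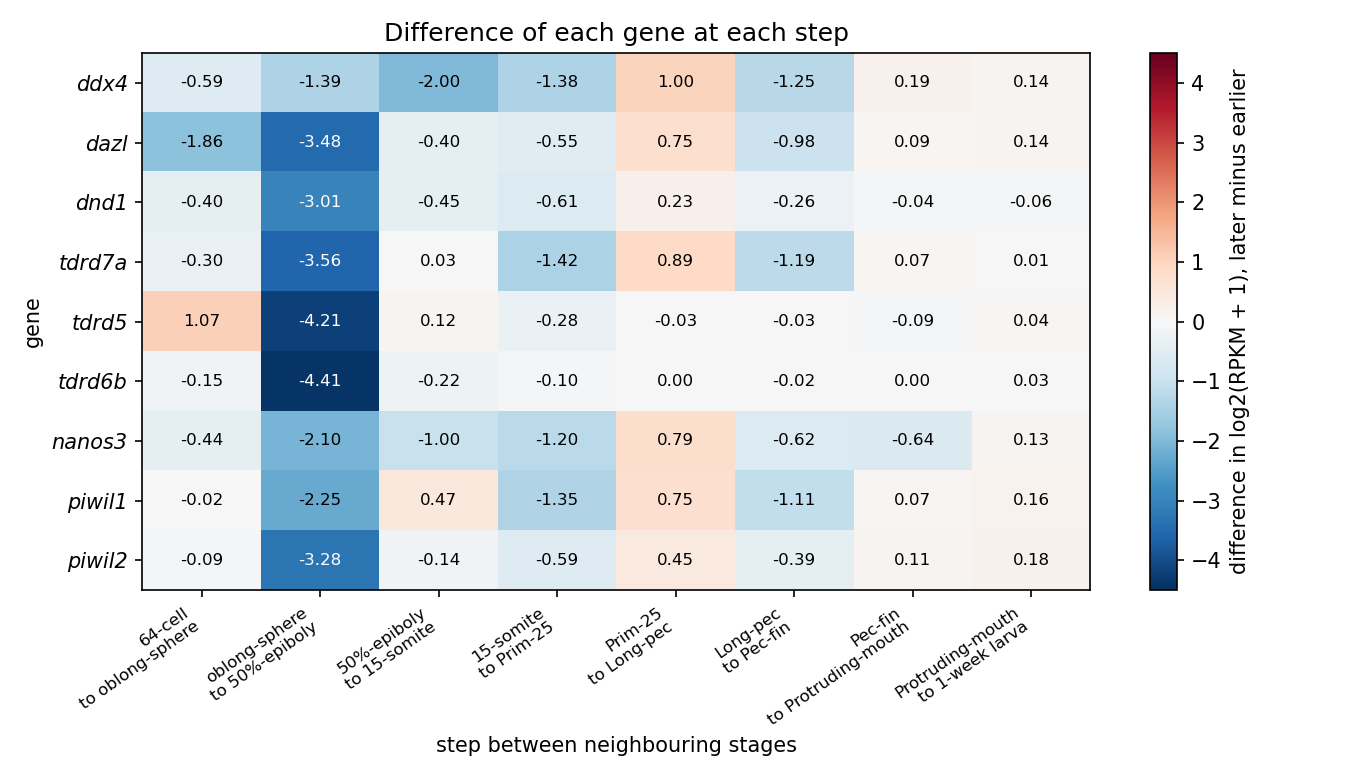
Difference in log2(RPKM + 1), later minus earlier stage, for each of the 9 genes (rows) at each of the 8 steps (columns), blue for lower and red for higher. The second column is blue throughout, from -1.39 for ddx4 to -4.41 for tdrd6b, and the Long-pec columns pair red with blue in all genes but tdrd5 and tdrd6b.

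Between oblong-sphere and 50%-epiboly all 9 genes were lower by at least 2-fold, against 31.1% of all genes. The median difference was -3.28, and over all genes it was -0.09. In RPKM ratios ddx4 was 2.71-fold, nanos3 4.66-fold and piwil1 6.68-fold lower. The ratio was 12.96-fold for dnd1, 16.0-fold for tdrd7a, 17.9-fold for dazl and 20.3-fold for piwil2. It was 76.3-fold for tdrd5 and 91.3-fold for tdrd6b. The genes thus spread over a wide range at this step, after lying between 13.2 and 46.7 RPKM at oblong-sphere. The share of ddx4 in the summed RPKM of the 9 genes went from 18.4% to 49.3% and that of nanos3 from 16.2% to 25.2%, while tdrd6b went from 10.4% to 0.826% and tdrd5 from 9.12% to 0.868%. These shares are ratios within a library and do not depend on how libraries are scaled. At the same step 10 of 13 exocrine pancreas genes were higher and 0 lower, against 14.4% of all genes higher. Their summed level was 0.493 RPKM at oblong-sphere and 42.3 RPKM at 50%-epiboly. The part of these genes' sources in the 50%-epiboly levels and shares of the 9 genes was not tested.

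**Figure D3:**
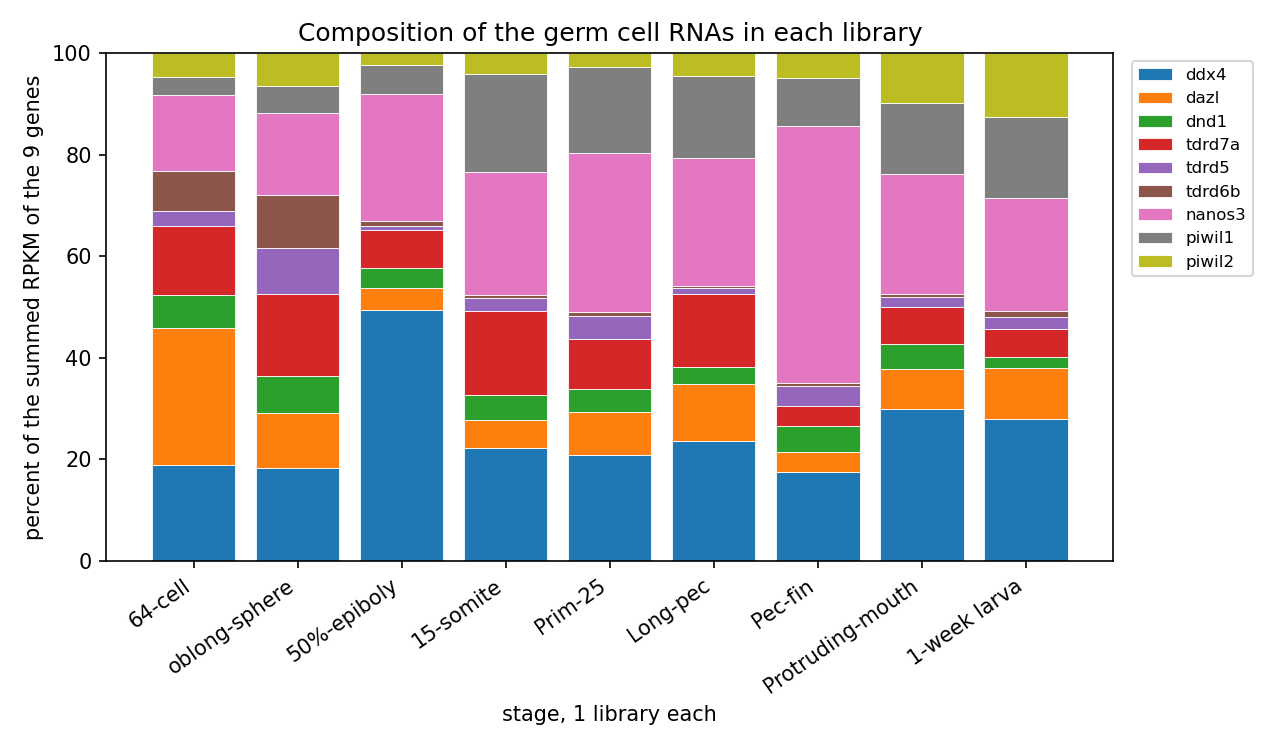
Share of each gene in the summed RPKM of the 9 genes (percent) at each stage, 1 library each. At 50%-epiboly ddx4 makes up 49.3% of the sum, at Pec-fin nanos3 makes up 50.6%, and tdrd6b goes from 10.4% at oblong-sphere to 0.826% at 50%-epiboly.

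The partners of the piRNA pathway showed a like spread at this step. Of 15 measured partners 13 were lower and 0 higher, with a median of -2.74. Large differences were those of tdrd1, from 62.7 to 1.04 RPKM, asz1, a mitochondrial germ granule protein, from 41.0 to 0.672 RPKM, rnf17, from 25.1 to 0.378 RPKM, and stk31, a Tudor and kinase domain gene, from 17.5 to 0.640 RPKM. The exceptions were the helicase gene ddx43, with 28.8 and then 29.7 RPKM, and the transcription factor gene mybl1, with 0.566 and then 0.196 RPKM. The gene gtsf1, a zinc-finger partner of Piwi proteins in the mouse, was lower by the measure but still at 104 RPKM, from 222 RPKM. Of 8 other germ plasm and germ cell genes 5 were lower and 1, the growth factor gene kitlga, was higher (0.0427 and then 2.47 RPKM). Of all genes 31.1% were lower and 14.4% higher at this step, and 1 of 8 is near the latter share. The carbonic anhydrase gene ca15b had 97.3 and then 2.36 RPKM, rgs14a 20.3 and then 0.258 RPKM and hook2 43.5 and then 1.70 RPKM, while the RNA-binding protein gene celf1 had 38.6 and then 51.9 RPKM. The gene tdrd6 stands in both lists.

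From 50%-epiboly to 15-somite 2 of the 9 genes were lower, ddx4 (-1.997) and nanos3 (-1.003), against 4.91% of all genes, and 0 were higher against 16.4%. The value for nanos3 lay at the threshold and was -0.99 when libraries were scaled without the 100 most abundant genes. The genes that had dropped most at the step before hardly moved, with -0.22 for tdrd6b and 0.12 for tdrd5, which on this scale partly follows from their low levels. In RPKM tdrd6b was 2.77-fold lower. With median-of-ratios scaling tdrd5 was at -0.05 and tdrd7a, 0.03 as deposited, at -0.45.

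From 15-somite to Prim-25 4 genes were lower, tdrd7a (-1.42), ddx4 (-1.38), piwil1 (-1.35) and nanos3 (-1.20), against 4.96% of all genes, and 0 were higher against 6.23%. The genes not called were all under 1 RPKM at 15-somite, so on this scale they could not be called lower. In RPKM all 9 were lower, from 2.54-fold for tdrd5 to 7.35-fold for tdrd7a. The pancreas genes moved with them, with 9 of 13 lower and a summed level of 95.1 and then 18.8 RPKM, and their part in the result was not tested. Between oblong-sphere and Pec-fin, the libraries in which the summed pancreas level was lowest, all 9 genes were lower by at least 2-fold, against 31.1% of all genes lower and 25% higher, with ratios from 29.3-fold for nanos3 to 1744-fold for tdrd6b. Between 50%-epiboly and Pec-fin 6 of the 9 were lower, against 12.6% of all genes, and 0 were higher against 22.6%. The genes not called, piwil2, tdrd5 and tdrd6b, were under 1 RPKM at 50%-epiboly and could not be called lower either. In RPKM piwil2 was 6.05-fold, tdrd5 2.73-fold and tdrd6b 19.1-fold lower. In that comparison 8 of 13 exocrine pancreas genes and 11 of 14 oocyte genes were lower too, and 0 of either were higher. The summed pancreas level was 42.3 RPKM at 50%-epiboly and 3.98 RPKM at Pec-fin, and its part in this result was not tested.

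Long-pec stood out from both its neighbours. In plain RPKM ratios 6 of the 9 genes, namely ddx4, dazl, dnd1, tdrd7a, piwil1 and piwil2, were at least 2 times as high at Long-pec as at Prim-25 and at Pec-fin, against 2.8% of all genes. The ratio to the higher neighbour was 4.23 for tdrd7a, 3.93 for dazl, 3.61 for piwil2, 3.33 for ddx4, 2.78 for piwil1, 2.21 for dnd1 and 1.92 for nanos3. It was 1.02 for tdrd6b and 0.839 for tdrd5. The median over the 9 genes was 2.78 and over all genes 0.894. In log2(RPKM + 1), which understates differences of low genes, the step from Prim-25 to Long-pec had 1 gene higher, ddx4 at the threshold (1.00), against 0.81% of all genes, and 0 lower, against 0.403%. Under the 3 other scalings no gene of the 9 was past the threshold. At the next step 3 were lower, ddx4 (-1.25), tdrd7a (-1.19) and piwil1 (-1.11), against 0.72%, and 0 were higher, against 0.785%. On that scale 0.232% of all genes were at least 2-fold above both neighbours at Long-pec.

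Other gene lists were set beside this, some of the germ line (oocyte, meiosis, piRNA pathway) and some of other cells (exocrine pancreas, somatic gonad). At least 2 times the level of both neighbours was found at Long-pec for 13 of 13 exocrine pancreas genes (median ratio 4.03), 10 of 14 oocyte genes (3.07), 12 of 19 meiosis genes (2.39) and 3 of 10 somatic gonad genes (0.809). It was also found for 6 of 15 piRNA pathway partners (1.79) and 3 of 8 other germ plasm and germ cell genes (1.09). The median of the somatic gonad list was below that of all genes (0.894). Its 3 genes past 2 times were insl3, a peptide hormone, with 1.76, 12.8 and 0.0865 RPKM at Prim-25, Long-pec and Pec-fin, gsdf, a growth factor of the gonad, with 0.631, 2.98 and 0.0182 RPKM, and inha, an inhibin subunit, with 0.0591, 0.196 and 0.0127 RPKM. The fsh receptor gene fshr was at 0.0118 RPKM at Long-pec. The summed level of the 15 oocyte genes was 4.41 RPKM at Prim-25, 16.0 RPKM at Long-pec and 1.48 RPKM at Pec-fin. The part of these genes' sources in the Long-pec values of the 9 germ cell genes was not tested. Both runs of Pec-fin had low values, for instance 0.488 and 0.478 RPKM for ddx4 and 0.132 and 0.0854 RPKM for tdrd7a.

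**Figure D4:**
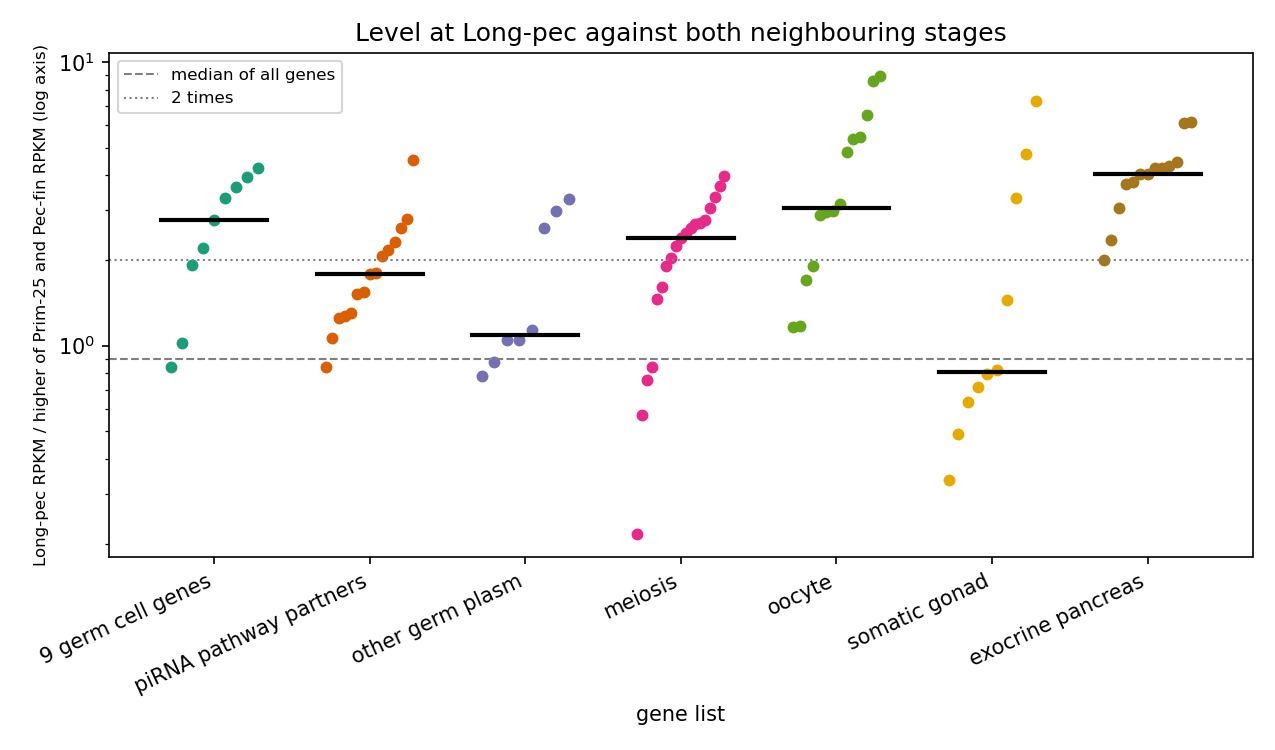
Level at Long-pec divided by the higher of the levels at Prim-25 and Pec-fin (log axis) for the genes of 7 lists, 1 point per gene, with the list median as a bar, the median of all genes (0.894) dashed and 2 times dotted. The median is 2.78 for the 9 germ cell genes, 2.39 for meiosis, 3.07 for oocyte and 4.03 for exocrine pancreas genes.

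At the last steps 0 of the 9 genes were past 2-fold in log2(RPKM + 1). A gene under 1 RPKM cannot be called lower on this scale. At Pec-fin only nanos3 was above that, and at Protruding-mouth the highest of the 9 had 0.688 RPKM. The absence of lower calls thus does not show stable levels. From Pec-fin to Protruding-mouth nanos3 was 2.58-fold, tdrd5 2.41-fold, dnd1 1.26-fold and tdrd6b 1.04-fold lower in RPKM. The genes ddx4, dazl, tdrd7a, piwil1 and piwil2 were higher, by up to 1.68-fold. From Pec-fin to Protruding-mouth 7.18% of all genes were higher and 2.1% lower, and from Protruding-mouth to 1 week 15.1% were higher and 6.86% lower. In RPKM 8 of the 9 had more at 1 week than at Protruding-mouth, from 1.04-fold for tdrd7a to 2.26-fold for tdrd6b, and dnd1 had less. For ddx4, nanos3 and tdrd7a this direction turned under each of the 3 other scalings. For dazl the values were 0.185 RPKM (0.149 to 0.227) and 0.306 RPKM (0.259 to 0.359), and for piwil1 0.325 RPKM (0.299 to 0.354) and 0.484 RPKM (0.451 to 0.518), with intervals that did not overlap. These intervals leave out the scaling. The 3 other scalings shift this step by -0.43, -0.56 and -0.54 in log2 RPKM. As deposited the log2 ratio was 0.73 for dazl and 0.57 for piwil1, so the size of both rises depends on the scaling. For piwil1 a shift of -0.56 leaves almost nothing. Its difference in log2(RPKM + 1) was 0.16 as deposited and 0.03, 0.004 and 0.009 under the 3 other scalings. Whether piwil1 rose at this step is thus not resolved.

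For each of the 9 genes the most alike courses were sought among 7363 other genes with a unique symbol and at least 10 RPKM in some library. Likeness was the root mean square distance over the 9 libraries between log2(RPKM + 1) profiles, each centred on its mean, and the median gene lay at 1.18 (for piwil1) to 2.02 (for dazl). The nearest gene was ELAVL2, an RNA-binding protein, for nanos3 (0.171), and it was also among the 3 nearest to ddx4 (0.346), led by EIF4E1B, a translation factor variant of oocytes (0.245). TDRD6 was among the 3 nearest to dazl (0.357) and to tdrd7a (0.366). The meiosis gene SYCP1, part of the synaptonemal complex, was nearest to piwil1 (0.199), and rnf17 to tdrd5 (0.143). The gene rbm44 was among the 3 nearest to dnd1 (0.137), led by GPAT2 (0.133), and to piwil2 (0.153), whose nearest was SPDYA, a cell cycle activator (0.0977). For tdrd6b the nearest were sun1a (0.0968), si:dkeyp-34c12.1 (0.160) and GDF9, an oocyte growth factor (0.165). For the rest the nearest were fhdc3 for dazl (0.323) and pias4b for tdrd7a (0.245). None of the 9 genes was among the 3 nearest of another.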

How the data were processed

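Per the labels' protocols, SOLiD libraries were made from RNase III fragments of poly(A) RNA, with about 2000 embryos or larvae pooled per stage. The deposited values are RPKM, 1 for each Ensembl gene in each library. The genome build was Zv9, per the submitters' processing notes, and for the aligner, counting program and annotation the entry is: not given in the sources used here. Gene symbols came from a table that matched 19580 of 29291 IDs, without regard to case. No genome of this build and no sequence table was used here, so no coordinates or sequences are given.

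RPKM is reads divided by length and mapped reads, so mapped reads and lengths were solved for as whole numbers. In 15642 of 19868 genes (78.7%) with at least 1 RPKM in some library, 1 length turned the values of all 8 single-run libraries into whole reads (tolerance parameter 1e-09). Where a value is a mean over transcripts, the recovered reads are their sum. Reading Pec-fin as the mean of 2 runs is an assumption of this step. On 5 simulated tables of 20000 genes, 40 of 40 totals and 10 of 10 run totals were recovered, and 99.8% of lengths. In 1 simulated step from oblong-sphere, 100 of 100 genes raised 8-fold and 100 of 100 lowered 8-fold were called at 2-fold. Of 19668 unchanged genes 0 were called. A change of 8-fold lies far past the 2-fold threshold, so this step cannot show how smaller changes are called. Nor does it carry over to low levels, where log2(RPKM + 1) understates differences. In the data, dazl was 10.8-fold lower from Long-pec to Pec-fin, with a difference of -0.98 that was not called.

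For each pair of stages the later minus the earlier log2(RPKM + 1) was taken for the 19868 genes and called at 1 (2-fold). With 1 library per stage no test was made. Beside the 9 genes, 6 gene lists were counted. The 9 genes and the lists were chosen with earlier results of these data known. All 9 genes are named. From each list at most 4 genes per step were named by size, with any exceptions besides, and for each of the 9 genes up to 3 of the most alike courses. The genes fshr, celf1, gtsf1, tdrkh, pld6, insl3, gsdf, inha, sycp3, dmc1, hormad1, zar1l, hbbe3 and he1.1 were named after their values were seen. So were sycp1, spo11, psmc3ip, mlh3, mei4, rad21l1, mnd1, sycp2, rec8a, rec8b, smc1b, meiob, terb1, msh4 and msh5 among the meiosis genes. Alternatives were a pseudocount of 0.1, scaling by the median of ratios, leaving the 100 most abundant or the mitochondrially encoded genes out of the scaling, no filter, each Pec-fin run alone and matching by synonyms. Python 3.11.15, numpy 2.4.6, pandas 2.3.3, scipy 1.17.1 and matplotlib 3.10.9 were used.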

Additional observations from a re-analysis of the deposited data

How the results depend on the processing

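All 9 genes were lower from oblong-sphere to 50%-epiboly and from 64-cell to 1 week under every alternative tried. Of 357 recomputed counts 339 stayed within 1.5 times and 18 did not. Many of the 339 were 0 both times, which was taken as unchanged. Of 396 recomputed differences of single genes among the 9, 108 were marked as the same and 288 as moved. Some moved little, such as ddx4 from 64-cell to oblong-sphere, -0.59 as deposited and -0.53 with median-of-ratios scaling. Others moved far, such as ddx4 from 15-somite to Prim-25, -1.38 as deposited and -2.10 with a pseudocount of 0.1. For the 9 genes, dropping the filter and matching synonyms could not change a count, since all 9 passed the filter and were found by symbol. Counts with 1 Pec-fin run hold only genes whose reads could be split and were judged against the deposited count over those genes. At Long-pec the latter was 5 of 8 meiosis genes, 3 of 9 piRNA partners and 1 of 4 somatic gonad genes, the same as with either run. With a pseudocount of 0.1, which weighs low genes more, counts of the 9 genes were 7 lower from 15-somite to Prim-25, 6 higher at Long-pec, 5 lower at Pec-fin and 1 lower at Protruding-mouth. The count at Long-pec was 0 with median-of-ratios scaling, without the 100 most abundant genes and without mitochondrially encoded genes, and scaling without the 100 most abundant genes left 1 lower at 15-somite. With that pseudocount piRNA partners had 1 lower at oblong-sphere, 4 higher at Long-pec and 6 lower at Pec-fin. Meiosis genes had 7 and 7 at the Long-pec steps, oocyte genes 10 and 11, and other germ plasm genes 3 and 3. Shares over all genes were taken with a pseudocount of 1 only. Whether the larger counts with 0.1 are particular to these genes thus cannot be told. Without mitochondrially encoded genes 1 meiosis gene was lower at Pec-fin. The count of 6 genes at least 2 times both neighbours at Long-pec stayed within 1.5 times under every scaling (5 without the 100 most abundant or the mitochondrially encoded genes), and was 6 and 5 with either Pec-fin run alone, over the 7 genes that could be split. Median-of-ratios scaling shifts all genes in log2 RPKM by 0.36 at 50%-epiboly, -0.63 at 15-somite, -0.31 at Protruding-mouth and -0.43 at 1 week. Leaving out 50%-epiboly, 15-somite, Prim-25 and Long-pec, and leaving out the last 3 of these, were chosen after seeing the data. No paired analysis was possible because each stage has 1 library. Depth limits orders among levels under about 1 RPKM.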

Other observations

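Some of the 19 measured meiosis genes were not highest at 64-cell but at 15-somite. Others were highest at 64-cell, namely sycp1 (12.3 RPKM), spo11 (5.35 RPKM) and psmc3ip (16.9 RPKM). The genes mlh3, mei4 and rad21l1 were highest at oblong-sphere and mnd1 and rec8a at 50%-epiboly, msh4 at Long-pec and msh5 at 1 week. Of those highest at 15-somite, dmc1, sycp2, rec8b, smc1b, meiob and terb1 stayed under 1 RPKM in every library. So did rec8a, msh4 and msh5. The recombinase gene dmc1 had 0.0180 RPKM at 64-cell, 0.412 RPKM at 50%-epiboly, 0.827 RPKM at 15-somite, 0.208 RPKM at Prim-25, 0.424 RPKM at Long-pec and 0.0319 RPKM at Pec-fin. The synaptonemal complex gene sycp3 had 0.722, 3.40, 3.97, 0.849, 2.202 and 0.807 RPKM at the same stages. The chromosome axis gene hormad1 had 0.400, 1.34, 2.37, 0.622, 1.90 and 0.205 RPKM. The summed level of the exocrine pancreas genes was also higher at 15-somite and at Long-pec than in the Prim-25 and Pec-fin libraries, and its part in these values was not tested.

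Oocyte genes and the 9 germ cell genes had unlike values at 1 week. From Protruding-mouth to 1 week 10 of 14 oocyte genes were higher by at least 2-fold in log2(RPKM + 1), with a median of 1.70, where 0 of the 9 germ cell genes and 15.1% of all genes were. The egg coat gene zp2.1 was listed at 0 at Protruding-mouth and had 17.3 RPKM at 1 week. The level of zp3a.1 was 0.433 RPKM at Protruding-mouth and 11.4 RPKM at 1 week, and that of zar1l, an oocyte RNA regulator, 0.253 and 3.82 RPKM. At 64-cell zp2.1 had 15.4 RPKM, zp3a.1 211 RPKM and zar1l 153 RPKM. Whether the RNA of oocyte genes at 1 week came from larvae of that age was not tested. This also limits what the 1-week values of the 9 germ cell genes say about larvae.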
